A study of Mus musculus with 20 samples.

Results

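Collagens and their companion proteins form the extracellular matrix that fibroblasts lay down around a tumor. The 7 genes described here, Col1a1, Col3a1, Col5a1, Col6a1, Sparc, Fn1 and Mgp, were chosen by symbol as rows of the count table, and all 7 were found among its 46329 gene rows. All 7 also passed the filter on low counts, which kept 7119 rows. The comparisons were between 4 groups of mouse libraries: tumor and adjacent tissue of mice lacking Erbb2 in the intestinal epithelium, and tumor and adjacent tissue of their control littermates. In Erbb2-deficient mice, Col1a1, Sparc, Fn1 and Mgp were higher in tumors than in adjacent tissue, by 3.01-fold to 7.97-fold in mean level. Sparc and Mgp had passed the filter on low counts only through the Erbb2-deficient tumors. In control mice none of the 7 passed the same test, and no difference between the genotypes passed it.

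Fibrillar collagens are trimers of long helical chains that assemble into the fibers giving tissue its tensile strength. Type I and type III collagen make up most of the fiber mass, type V collagen is built into the same fibers and limits their diameter, and type VI collagen forms beaded filaments between fibers and cell surfaces. Fibronectin, encoded by Fn1, binds integrins and collagen and is the scaffold on which fibers assemble. Sparc, also called osteonectin, is a secreted collagen-binding protein, and matrix Gla protein, encoded by Mgp, is a small secreted protein that inhibits calcification and binds bone morphogenetic proteins. In the gut these proteins come mainly from fibroblasts and other mesenchymal cells, not from the epithelium.

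All mice were C57BL/6J, were 100 days old and carried ApcMin/+, a truncating allele of Apc that predisposes to intestinal tumors. The Erbb2-deficient genotype was ApcMin/+, Erbb2 f/f, Tg(Vil1-cre), in which the Villin promoter drives cre recombinase in intestinal epithelial cells, so that stromal cells are not its target. The control genotype was ApcMin/+, Erbb2 f/f without the transgene, so cre itself is present in one genotype only. Each genotype gave 5 colorectal tumor libraries and 5 libraries labelled as epithelium adjacent to tumors and free of them. The labels call these libraries biological replicates but do not say which came from separate mice. The p-values reflect how far libraries spread around their group means, with that spread estimated over all 4 groups together. A library outside the groups compared can therefore change a p-value.

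The deposited rows hold few of the reads. Between 1071737 and 1944309 counts per library fell on gene rows, which is 2.51% to 3.45% of the reads, while 78.6% to 85.1% fell on no counted feature. Of the 46329 rows, 6686 belong to genes with an exon that overlaps one of a gene transcribed the other way, and these held 54.6% of the counts, although the library kit preserves strand. The rows therefore appear to have been counted on the opposite strand, and the level of a row is not shown to be the level of its gene's mRNA. The housekeeping gene Gapdh, which encodes a glycolytic enzyme, averaged 3.85 counts per library. The Erbb2 row held 1 to 11 counts in Erbb2-deficient tumors and 1 to 10 in control tumors, and 5 to 22 in Erbb2-deficient adjacent tissue and 3 to 12 in control adjacent tissue, so it cannot serve as a check of the deletion. No pair of libraries was identical. Control tumor 2 stood apart, with summed epithelial marker rows of 15.4 CPM in a group that otherwise reached up to 1004 CPM, and control tumor 3 held that highest epithelial sum and the highest smooth muscle sum of the tumors, 539.9 CPM.

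The 7 rows averaged 7.40 counts per library for Mgp to 25.55 for Fn1, and together they held 30 to 307 counts in a library. Per kilobase of annotated exon, Mgp averaged 6.23 counts and the other 6 rows lay between 1.63 counts for Col5a1 and 2.94 counts for Sparc. On this scale Mgp, the shortest of the genes, had the densest row. GENCODE M21 annotates no gene on the opposite strand of 5 of the 7 genes. Of the others, Col5a1 lies opposite Gm13372 and 2810430I11Rik, which has no row, and Fn1 shares 292 bases with Apol7d, whose row averaged 0.05 counts.

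Promoter sequences are shown because the starts of these genes differ in base composition. RefSeq (GRCm38.p6) gave a promoter window for 4 of the 7 genes, and the 100 bases before the annotated start are printed 5′ to 3′ on the gene's strand, with capitals for matches on either strand to the motifs named after them.

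Col3a1, chr1:45311438-45311537, plus strand: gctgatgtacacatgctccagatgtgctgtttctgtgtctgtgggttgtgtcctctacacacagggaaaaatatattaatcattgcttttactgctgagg
Col5a1, chr2:27886325-27886424, plus strand: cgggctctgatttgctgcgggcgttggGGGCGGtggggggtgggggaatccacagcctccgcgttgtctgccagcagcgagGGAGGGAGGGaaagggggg
Col6a1, chr10:76726045-76726144, minus strand: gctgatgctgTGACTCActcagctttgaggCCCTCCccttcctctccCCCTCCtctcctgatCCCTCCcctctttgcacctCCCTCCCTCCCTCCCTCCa
Sparc, chr11:55420081-55420180, minus strand: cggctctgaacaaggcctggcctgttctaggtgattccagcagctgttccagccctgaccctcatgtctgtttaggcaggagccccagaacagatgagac

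Over the 250 bases before the start, the GC content was 35.2% for Col3a1, 76.4% for Col5a1, 56.0% for Col6a1 and 54.0% for Sparc, against a median of 52.4% over 32851 windows of the same length. The search for 5 motifs covered both strands of these 250 bases. TATAAA, the TATA box, was found for Col3a1, before the bases printed, and in 12.4% of all windows, and TGANTCA, the AP-1 motif, was found for Col6a1 and in 6.75% of all windows. GGGCGG, the core of the Sp1 motif, was found for Col5a1 and in 32.7% of all windows. CCCTCC, matches of which overlap one another in the runs above, was found for Col5a1 and Col6a1 and in 35.2% of all windows. CCAAT was found for none of the 4 genes and in 33.9% of all windows. The 4 windows had no motif in common, and a match of these letters is a description of the window.

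**Figure D1:**
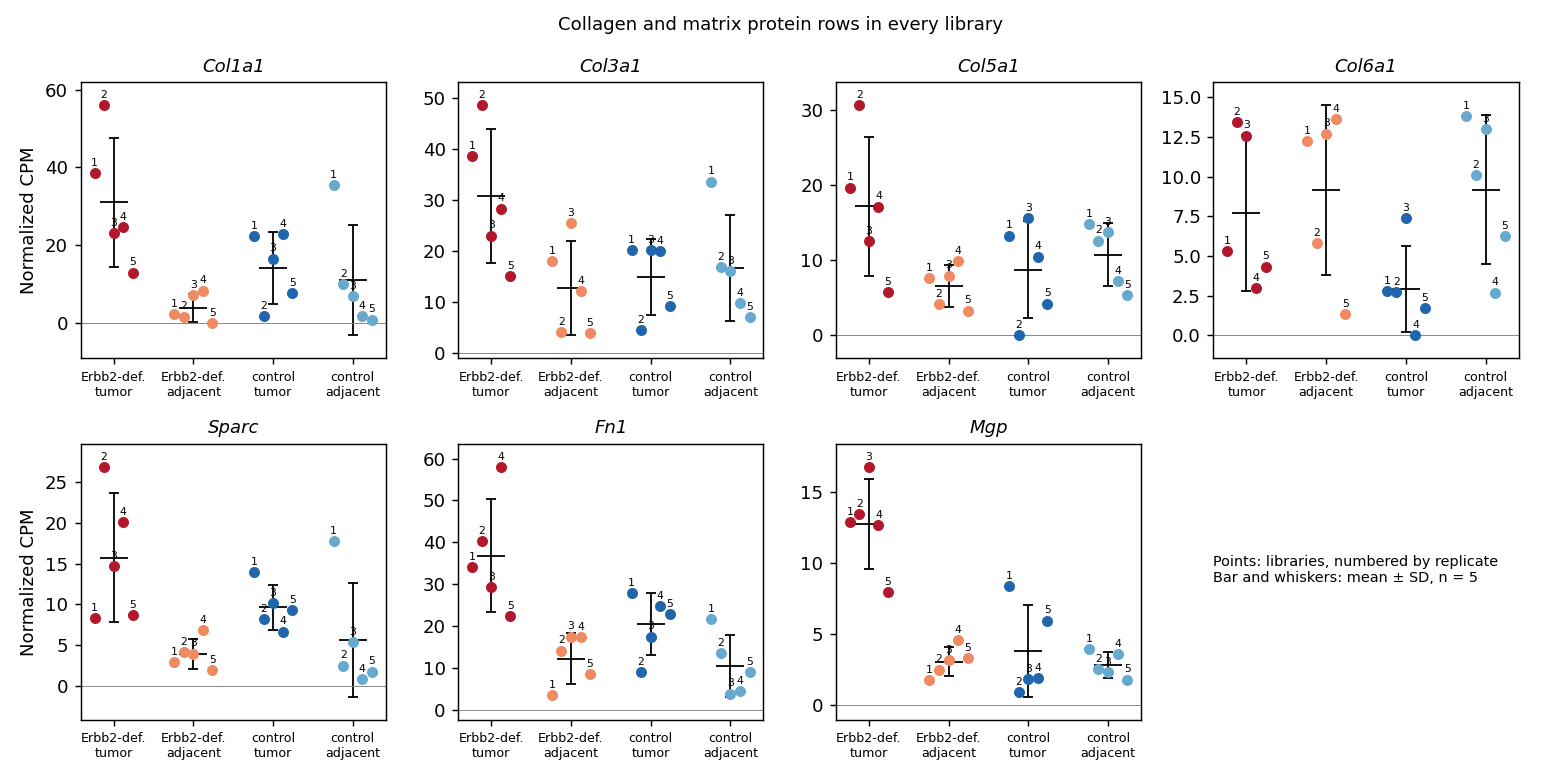
Normalized CPM (scaled counts, y axis) of the 7 rows in each of 20 libraries, by group, with points numbered by replicate and bars for the mean ± SD (n = 5). Erbb2-deficient tumors lie wholly above Erbb2-deficient adjacent tissue for Col1a1, Sparc, Fn1 and Mgp, and every other pair of groups compared overlaps.

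Levels are given as normalized CPM, a row's counts scaled to the same library total over the rows tested, with TMM factors. Col1a1, the main chain of type I collagen, had 38.5, 56.0, 23.0, 24.6 and 12.97 CPM in Erbb2-deficient tumors, against 2.33, 1.66, 7.14, 8.32 and 0 CPM in Erbb2-deficient adjacent tissue. In control mice Col1a1 had 22.3, 1.82, 16.6, 22.9 and 7.62 CPM in tumors, against 35.5, 10.1, 6.88, 1.79 and 0.89 CPM in adjacent tissue. The lowest Erbb2-deficient tumor was above every Erbb2-deficient adjacent library, whereas in control mice the highest library of all was an adjacent one. Group means were 31.0 ± 16.7 CPM in Erbb2-deficient tumors, 3.89 ± 3.63 CPM in Erbb2-deficient adjacent tissue, 14.2 ± 9.26 CPM in control tumors and 11.04 ± 14.2 CPM in control adjacent tissue (SD, n = 5 each).

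Col3a1 encodes the chain of type III collagen, the fibrillar collagen of loose and expanding connective tissue. Its row had 38.5, 48.5, 23.0, 28.3 and 15.1 CPM in Erbb2-deficient tumors, against 18.04, 4.16, 25.4, 12.1 and 3.97 CPM in Erbb2-deficient adjacent tissue. In control mice it had 20.2, 4.54, 20.2, 19.99 and 9.32 CPM in tumors, against 33.6, 16.8, 16.1, 9.86 and 7.12 CPM in adjacent tissue. The groups overlapped in both genotypes, and Erbb2-deficient adjacent replicate 3 was above 2 of the 5 Erbb2-deficient tumors.

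Col5a1, a chain of the type V collagen that nucleates fibers, had 19.6, 30.6, 12.6, 17.1 and 5.76 CPM in Erbb2-deficient tumors, against 7.56, 4.16, 7.94, 9.84 and 3.31 CPM in Erbb2-deficient adjacent tissue. Control tumors had 13.3, 0, 15.6, 10.5 and 4.24 CPM, against 14.8, 12.6, 13.8, 7.17 and 5.34 CPM in control adjacent tissue. Only Erbb2-deficient tumor 5 fell within the range of the Erbb2-deficient adjacent libraries, and the 0 in control mice was control tumor 2.

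Col6a1, a chain of the beaded-filament collagen, did not follow the fibrillar chains. Its row had 5.29, 13.4, 12.6, 2.98 and 4.32 CPM in Erbb2-deficient tumors, against 12.2, 5.82, 12.7, 13.6 and 1.32 CPM in Erbb2-deficient adjacent tissue. In control mice it had 2.79, 2.72, 7.36, 0 and 1.69 CPM in tumors, against 13.8, 10.1, 13.005, 2.69 and 6.23 CPM in adjacent tissue. The highest control tumor was replicate 3, and 3 of the 5 control adjacent libraries were above it.

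The collagen-binding protein gene Sparc had 8.31, 26.9, 14.7, 20.1 and 8.65 CPM in Erbb2-deficient tumors, against 2.91, 4.16, 3.97, 6.81 and 1.98 CPM in Erbb2-deficient adjacent tissue. Control tumors had 14.0, 8.17, 10.1, 6.66 and 9.32 CPM, against 17.8, 2.52, 5.36, 0.896 and 1.78 CPM in control adjacent tissue. Every control tumor was above 4 of the 5 control adjacent libraries, and replicate 1 of the adjacent libraries was above all of the tumors.

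The fibronectin gene Fn1 had 34.0, 40.3, 29.3, 58.1 and 22.3 CPM in Erbb2-deficient tumors, against 3.49, 14.1, 17.5, 17.4 and 8.60 CPM in Erbb2-deficient adjacent tissue. In control mice it had 27.9, 9.08, 17.5, 24.8 and 22.9 CPM in tumors, against 21.7, 13.4, 3.83, 4.48 and 8.90 CPM in adjacent tissue. Erbb2-deficient tumors were again clear of their adjacent libraries, and control tumors overlapped theirs through control tumors 2 and 3 and control adjacent replicates 1 and 2.

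The calcification inhibitor gene Mgp had 12.8, 13.4, 16.8, 12.7 and 7.93 CPM in Erbb2-deficient tumors, against 1.75, 2.49, 3.17, 4.54 and 3.31 CPM in Erbb2-deficient adjacent tissue. Control tumors had 8.38, 0.908, 1.84, 1.904 and 5.93 CPM, against 3.95, 2.52, 2.29, 3.58 and 1.78 CPM in control adjacent tissue. In 4 of the 5 Erbb2-deficient tumors the level was above every library of the other groups, and the remaining tumor was below control tumor 1. Mgp reached the level of the count filter, 7.95 CPM of unscaled counts, in 5 Erbb2-deficient tumors and 1 other library, and Sparc in 5 Erbb2-deficient tumors and 4 other libraries. With 5 libraries needed, both passed the filter through the group where they were high.

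The first comparison asked how tumors of Erbb2-deficient mice differ from the tissue beside them. Col1a1, Sparc, Fn1 and Mgp rose in tumors and none of the 7 fell, beside 13.0% of all tested rows that rose and 14.5% that fell. Mean levels were 7.97-fold higher for Col1a1, 4.17-fold for Mgp, 3.96-fold for Sparc and 3.01-fold for Fn1. The edgeR quasi-likelihood test gave log2 fold changes of 2.99 ± 0.82 for Col1a1 (SE, adjusted p = 0.00961), 2.04 ± 0.44 for Mgp (adjusted p = 0.00181), 1.98 ± 0.55 for Sparc (adjusted p = 0.0110) and 1.60 ± 0.45 for Fn1 (adjusted p = 0.0125). All 5 tumors were above all 5 adjacent libraries for each of these 4 genes, a pattern that 11.9% of all tested rows showed in this direction. Sparc and Mgp passed the count filter only through these tumors, so for them neither the call nor the lack of overlap is independent of the filter. Col3a1 and Col5a1 had log2 fold changes of 1.26 ± 0.51 and 1.37 ± 0.56 and did not pass (edgeR adjusted p = 0.0722 and 0.0740), and Col6a1 had -0.24 ± 0.58 (adjusted p = 0.797). In bulk tissue, fewer cells of a type and less RNA per cell cannot be told apart, and smooth muscle marker rows, at 205 to 277 CPM in these tumors and 1186 to 1491 CPM in the adjacent libraries, moved in the same comparison. The median log2 fold change was 1.60 over the 7 genes and -0.06 over all tested rows. With scaling factors from the rows that have no opposite-strand exon, the median over all rows moved by 0.11, and relative to the median the 4 genes lay between 1.66 for Fn1 and 3.05 for Col1a1 in the reported fit. The 4 calls held in all alternatives that tested the gene, fits with no filter on low counts among them. Col3a1 passed in 9 of 30 alternatives, leaving out Erbb2-deficient tumor 5, Erbb2-deficient adjacent 3 or control tumor 2 (adjusted p = 0.0437, 0.0268 and 0.0343) among them, and with the replicate number as a block (adjusted p = 0.0223, or 0.0489 with blocks within genotype). Col5a1 passed in 4 of 29, leaving out Erbb2-deficient tumor 5 or control tumor 2 (adjusted p = 0.0355 and 0.0150) among them.

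The same comparison in control mice gave none of the 7 genes past the threshold of 0.05, beside 10.7% of all tested rows that rose in tumors and 10.9% that fell. Fn1 came nearest among the higher genes, with 20.4 ± 7.39 CPM in control tumors and 10.5 ± 7.38 CPM in control adjacent tissue (SD, n = 5 each) and a log2 fold change of 0.98 ± 0.47 (edgeR adjusted p = 0.141). Col6a1 averaged 2.91 ± 2.73 CPM in control tumors and 9.16 ± 4.69 CPM in control adjacent tissue (SD, n = 5 each), with a log2 fold change of -1.62 ± 0.67 (edgeR adjusted p = 0.0895). These were the 2 genes with an unadjusted p under 0.05, as had 35.3% of all tested rows, and DESeq2 called none of the 7. The log2 fold changes of the other genes were 0.80 ± 0.56 for Sparc, 0.48 ± 0.50 for Mgp, 0.39 ± 0.76 for Col1a1, -0.16 ± 0.52 for Col3a1 and -0.29 ± 0.57 for Col5a1. Their 95% intervals reached up to 1.98 for Col1a1, 1.96 for Sparc, 1.52 for Mgp, 0.93 for Col3a1 and 0.90 for Col5a1. The calls of Sparc, Fn1 and Col6a1 depended on single libraries, and Col1a1, Col3a1, Col5a1 and Mgp passed in no alternative. Without control adjacent replicate 1, Sparc rose by 1.81 on the log2 scale (edgeR adjusted p = 0.0174), Fn1 by 1.41 (adjusted p = 0.0448), and Col1a1 had 1.49 (adjusted p = 0.186). Without control tumor 3, Col6a1 fell by 2.23 (edgeR adjusted p = 0.0262). Without control tumors 2 and 3 together, Fn1 rose by 1.28 (edgeR adjusted p = 0.0440) and Col6a1 fell by 2.46 (adjusted p = 0.0233).

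Between tumors of the genotypes, all 7 rows had higher means in Erbb2-deficient tumors and none passed the test. A log2 fold change above 0 was seen in 49.1% of all tested rows, and the share of rows called was 0%. The log2 fold changes were 1.67 ± 0.43 for Mgp, 1.38 ± 0.67 for Col6a1, 1.11 ± 0.73 for Col1a1, 1.04 ± 0.51 for Col3a1, 0.96 ± 0.55 for Col5a1, 0.84 ± 0.44 for Fn1 and 0.69 ± 0.51 for Sparc, with edgeR adjusted p from 0.180 for Mgp to 0.651 for Sparc. Mgp averaged 12.7 ± 3.16 CPM in Erbb2-deficient tumors and 3.79 ± 3.21 CPM in control tumors (SD, n = 5 each), and its unadjusted p of 0.000888 ranked 26 among 7119 rows. Mgp was already known from earlier results of these data to stand near the top of this comparison. Its log2 fold change was 2.19 without control tumor 1 (edgeR adjusted p = 0.0823) and 1.22 without control tumors 2 and 3 (adjusted p = 0.572). Over all rows edgeR called 0 and had 817 (11.5%) with an unadjusted p under 0.05, Mgp among them, and DESeq2 called 31, with none of the 7 among them. The intervals for all but Mgp included 0 and reached 2.78 for Col6a1 and 2.63 for Col1a1. The 7 rows tend to vary together from library to library, so their common direction is not 7 separate observations.

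In adjacent tissue none of the 7 differed between the genotypes by the test, where 0% of rows were called. Col1a1 averaged 3.89 CPM in Erbb2-deficient adjacent tissue and 11.04 CPM in control adjacent tissue, with a log2 fold change of -1.49 ± 0.84 (edgeR adjusted p = 0.891). The control mean was 4.91 CPM without control adjacent replicate 1, and the log2 fold change was then -0.41. For the other 6 genes it lay between -0.70 for Col5a1 and 0.22 for Fn1, and no gene had an unadjusted p under 0.05 (edgeR), as 5.87% of all tested rows had. DESeq2 called none of the 7 there.

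Whether the tumor difference itself differed between the genotypes was tested as the interaction, and none of the 7 passed (0% of rows called). All 7 estimates were above 0, as were 44.3% of all tested rows, and they ran from 0.62 ± 0.65 for Fn1 to 2.60 ± 1.11 for Col1a1. Col1a1 and Mgp had an unadjusted p under 0.05 (0.0295 and 0.0319), as had 4.07% of all tested rows, and the edgeR adjusted p was 0.99998 for each of the 7. The rise of 4 genes in Erbb2-deficient tumors is thus not shown to be particular to that genotype. Without control adjacent replicate 1 the interaction was 1.52 for Col1a1 and 0.18 for Sparc. The comparisons share libraries, since Erbb2-deficient tumors enter the first comparison, the tumor comparison of genotypes and the interaction.

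**Figure D2:**
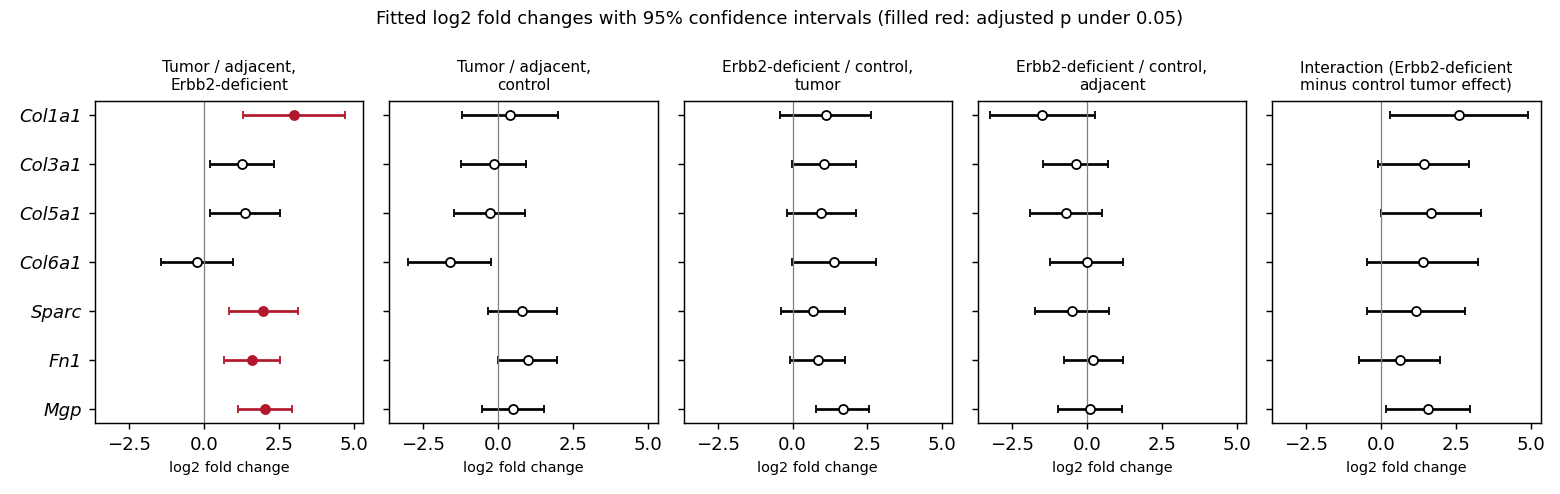
Fitted log2 fold changes of the 7 rows (x axis) with 95% confidence intervals in the 4 comparisons and the interaction, filled red where the edgeR adjusted p is under 0.05. Col1a1, Sparc, Fn1 and Mgp are filled in the Erbb2-deficient tumor comparison, and no gene is filled elsewhere.

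Among the 7 genes, Col5a1 has a well-counted row opposite it. Gm13372, a predicted gene, averaged 149.65 counts per library, against 13.8 for Col5a1, and per kilobase of exon 218 counts against 1.63. The stretch where their exons overlap lies inside the coding part of Col5a1, at positions 5346 to 5458 of the 8406 bases of transcript Col5a1-201, on chromosome 2. It is shown, 5′ to 3′ on the Col5a1 strand and from the GENCODE M21 transcript, because reads from it can be counted to either row.

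Col5a1 stretch shared with Gm13372: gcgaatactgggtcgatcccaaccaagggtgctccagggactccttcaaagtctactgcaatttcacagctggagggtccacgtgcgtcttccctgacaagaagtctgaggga

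These 113 bases make up 16.4% of the 688 bases of transcript Gm13372-201. The Gm13372 row had 175, 145, 110.3, 99.0 and 89.3 CPM in Erbb2-deficient tumors, against 116, 79.8, 84.9, 116 and 80.7 CPM in Erbb2-deficient adjacent tissue. In control mice it had 107, 17.2, 169, 192 and 144 CPM in tumors, against 228, 113, 131, 91.4 and 95.2 CPM in adjacent tissue. The groups overlapped throughout, and control tumor 2 was lowest for this row as it was for Col5a1. Tumor over adjacent, the log2 fold change of Gm13372 was 0.37 ± 0.40 in Erbb2-deficient mice and -0.07 ± 0.40 in control mice (edgeR adjusted p = 0.521 and 0.929). Between genotypes it was -0.02 ± 0.40 in tumors and -0.46 ± 0.40 in adjacent tissue (edgeR adjusted p = 0.991 and 0.927). Deviations of the 2 rows from their group means had a Pearson r of 0.82 over 20 libraries, and 0.58 without control tumor 2, with library depth and tissue makeup shared between the rows.

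**Figure D3:**
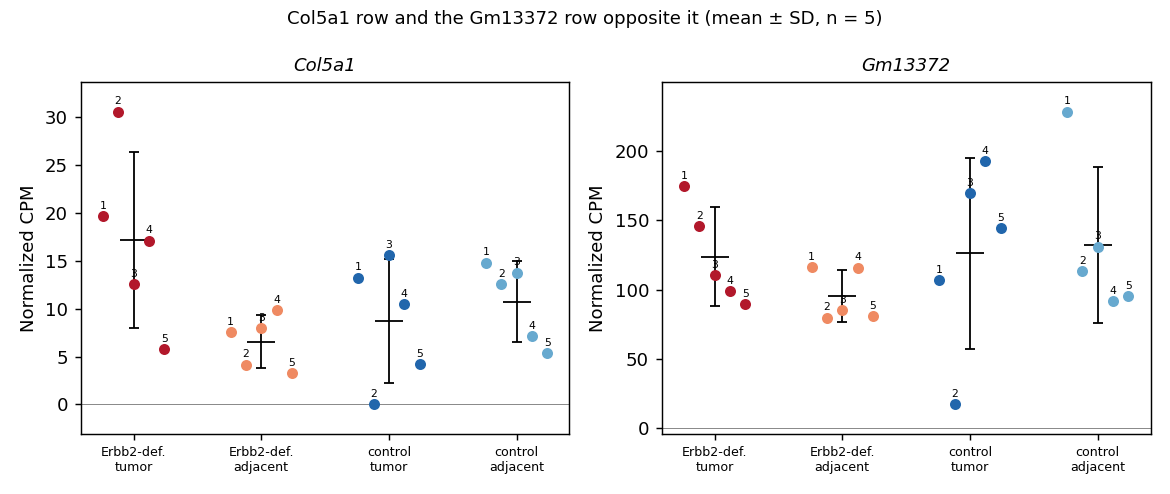
Normalized CPM of the Col5a1 row (left) and of the Gm13372 row on the opposite strand (right) in each library, with mean ± SD (n = 5) per group. The Gm13372 row lies far higher, and control tumor 2 is the lowest library in both panels.

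Rows opposite other matrix genes were often the better counted ones. GENCODE M21 gave 25 pairs of a row and a listed collagen, matrix or collagen-synthesis gene on its opposite strand, and 21 of those rows were tested. In 17 of the 25 pairs the row had a higher mean count than the matrix gene's own row. Col4a1 and Col4a2 enter these pairs in both directions. The share over all such pairs of the table was not computed, so this is not shown to be particular to matrix genes. Snx22, opposite the collagen chaperone gene Ppib, averaged 7969.2 counts against 47.45, and Polr2b, opposite the matrix-associated gene Igfbp7, averaged 1003.8 against 93.05. The next 4 by mean count were C430014B12Rik opposite Col4a3 (199 against 33.3), Gm15270 opposite Ccn2 (158.65 against 16.3), Gm13372 opposite Col5a1 and Rtraf opposite the basement membrane gene Nid2 (121 against 6.60). Polr2b itself encodes a subunit of RNA polymerase II, and shared positions do not say which gene a count belongs to.

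The rest of the matrix genes were read from lists, of which few members passed the count filter. Of 8 further fibrillar collagens 1 was tested, Col1a2, the other chain of type I collagen. It averaged 14.6 ± 6.997 CPM in Erbb2-deficient tumors and 4.52 ± 3.90 CPM in Erbb2-deficient adjacent tissue, and 6.83 ± 4.42 CPM in control tumors and 5.79 ± 6.01 CPM in control adjacent tissue (SD, n = 5 each). Its log2 fold changes, 1.68 ± 0.69 and 0.29 ± 0.72, did not pass (edgeR adjusted p = 0.0733 and 0.815).

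Of 32 network-forming and other collagens 6 were tested. In Erbb2-deficient tumors 4 rose and 0 fell, and in control tumors 0 changed (edgeR), beside the background shares given above for each comparison. The median log2 fold change of the 6 was 1.16 in Erbb2-deficient and 0.56 in control mice, against -0.06 and 0.07 over all tested rows. Col4a1, a chain of basement membrane collagen, averaged 86.9 ± 32.7 CPM in Erbb2-deficient tumors and 20.1 ± 11.3 CPM in Erbb2-deficient adjacent tissue (SD, n = 5 each; log2 fold change 2.11 ± 0.42, edgeR adjusted p = 0.00106). Its partner chain Col4a2, which lies head to head with it on the opposite strand, rose by 1.46 ± 0.44 (edgeR adjusted p = 0.0167). Col18a1, the precursor of endostatin, rose by 0.87 ± 0.23 (edgeR adjusted p = 0.00880), and Col12a1, a collagen on fiber surfaces, by 2.52 ± 0.78 (adjusted p = 0.0209). In control mice the same 4 rows had log2 fold changes of 0.87, 0.75, 0.37 and 1.17, none past the threshold. Col6a2, which pairs with Col6a1 in type VI collagen, averaged 15.5 ± 5.05 CPM in Erbb2-deficient tumors and 11.6 ± 6.65 CPM in Erbb2-deficient adjacent tissue, and 6.95 ± 3.48 CPM in control tumors and 13.1 ± 5.11 CPM in control adjacent tissue (SD, n = 5 each). Like Col6a1, it had no positive log2 fold change in control tumors, at -0.91 ± 0.46 (edgeR adjusted p = 0.157), and in Erbb2-deficient tumors it had 0.41 ± 0.43 (adjusted p = 0.497).

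Of 48 other matrix proteins 10 were tested, and 2 rose and 0 fell in Erbb2-deficient tumors, beside 13.0% and 14.5% of all tested rows. In control tumors 2 rose and 2 fell, beside 10.7% and 10.9%. Their median log2 fold changes were 0.14 and -0.39. The basement membrane laminin gene Lama5 rose in tumors of both genotypes, with log2 fold changes of 2.42 ± 0.55 in Erbb2-deficient and 2.28 ± 0.58 in control mice (edgeR adjusted p = 0.00270 and 0.00869). Igfbp7, which lies opposite Polr2b, rose by 0.79 ± 0.24 in Erbb2-deficient and by 0.74 ± 0.24 in control tumors (edgeR adjusted p = 0.0183 and 0.0312). The better counted Polr2b row rose too, by 1.18 and 0.73 (edgeR adjusted p = 0.00140 and 0.0368). Sparcl1, a relative of Sparc, and Ccn2, a secreted growth factor-binding protein, fell in control tumors, by 3.12 ± 0.67 and 1.69 ± 0.37 on the log2 scale (edgeR adjusted p = 0.00261 and 0.00312). Sparc itself had 0.80 in that comparison and did not pass. In Erbb2-deficient mice Sparcl1 had -1.37 ± 0.63 and Ccn2 -0.28 ± 0.36, neither past the threshold (edgeR adjusted p = 0.109 and 0.591).

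**Figure D4:**
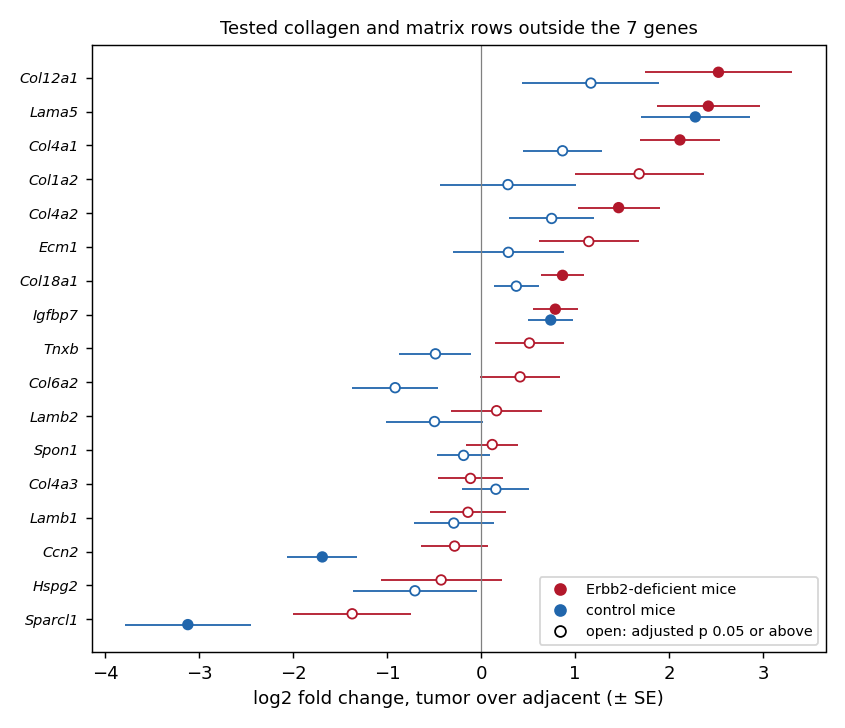
Log2 fold changes of tumor over adjacent tissue (x axis, ± SE) for the 17 tested collagen and matrix rows outside the 7 genes, in Erbb2-deficient mice (red) and control mice (blue), filled where the edgeR adjusted p is under 0.05. Col12a1, Lama5, Col4a1, Col4a2, Col18a1 and Igfbp7 are filled in red, and Lama5, Igfbp7, Ccn2 and Sparcl1 in blue.

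Of 33 genes that make and cross-link collagen 10 were tested. In Erbb2-deficient tumors 1 rose and 3 fell, beside 13.0% and 14.5% of all tested rows, and in control tumors 1 rose and 2 fell, beside 10.7% and 10.9%, with median log2 fold changes of -0.41 and -0.37 over the rows tested. The lysyl hydroxylase gene Plod1 averaged 1.005 CPM in Erbb2-deficient tumors and 11.8 CPM in Erbb2-deficient adjacent tissue, and 2.12 CPM in control tumors and 12.98 CPM in control adjacent tissue (edgeR adjusted p = 0.00100 and 0.00633). Pcolce, an enhancer of procollagen processing, averaged 37.0 CPM in Erbb2-deficient tumors and 121 CPM in Erbb2-deficient adjacent tissue, and 37.9 CPM in control tumors and 106 CPM in control adjacent tissue (edgeR adjusted p = 0.00100 and 0.00399). Plod3, another lysyl hydroxylase gene, rose in Erbb2-deficient tumors by 0.80 ± 0.23, and Ppib rose in control tumors by 1.40 ± 0.35 (edgeR adjusted p = 0.0133 and 0.00704). Plod3 had 0.61 ± 0.23 in control tumors and Ppib 0.60 ± 0.34 in Erbb2-deficient tumors, neither past the threshold (edgeR adjusted p = 0.0620 and 0.199). Creb3l1, a transcription factor gene of collagen-secreting cells, also fell in Erbb2-deficient tumors. Plod3 and Ppib share exon bases with Znhit1 and Snx22 on the opposite strand. The Znhit1 row rose by 1.33 in Erbb2-deficient and by 1.03 in control tumors (edgeR adjusted p = 0.00119 and 0.00981). The Snx22 row had 0.39 and 0.41 and did not pass (edgeR adjusted p = 0.111 and 0.106).

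Of 21 matrix receptors 7 were tested, and 3 rose and 0 fell in Erbb2-deficient tumors (13.0% and 14.5% of all tested rows), against 0 and 0 in control tumors (10.7% and 10.9%), with median log2 fold changes of 0.98 and 0.79. The integrin subunit gene Itgav, part of fibronectin receptors, averaged 31.4 ± 9.53 CPM in Erbb2-deficient tumors and 9.75 ± 3.11 CPM in Erbb2-deficient adjacent tissue (SD, n = 5 each; edgeR adjusted p = 0.00752). The collagen receptor kinase gene Ddr1 rose by 2.01 ± 0.55 and the proteoglycan gene Sdc1 by 1.98 ± 0.61 (edgeR adjusted p = 0.00973 and 0.0205). All 3 are also expressed by epithelial cells, and in control tumors their log2 fold changes were 1.101, 1.22 and 1.51. Of 25 matrix proteases and inhibitors 6 were tested, and 1 rose and 1 fell in Erbb2-deficient tumors, against 0 and 1 in control tumors, with median log2 fold changes of 0.41 and 0.25. These counts are near the same shares of all rows. Mmp14, a membrane-anchored collagenase, averaged 51.4 ± 5.94 CPM in Erbb2-deficient tumors and 19.8 ± 10.05 CPM in Erbb2-deficient adjacent tissue (SD, n = 5 each; edgeR adjusted p = 0.0208). Its log2 fold change in control tumors was 0.52 ± 0.43 (edgeR adjusted p = 0.410). Timp4, an inhibitor of such enzymes, averaged 1.77 CPM in Erbb2-deficient tumors and 16.1 CPM in Erbb2-deficient adjacent tissue, and 1.78 CPM in control tumors and 11.2 CPM in control adjacent tissue (edgeR adjusted p = 0.000421 and 0.00367). In both comparisons between genotypes 0 rows of any of these lists passed.

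Markers of the cell types a tissue piece can hold were set beside the 7 genes. Of 11 fibroblast markers 1 was tested, Vim, the intermediate filament gene of mesenchymal cells. It averaged 29.8 ± 11.3 CPM in Erbb2-deficient tumors and 4.07 ± 2.43 CPM in Erbb2-deficient adjacent tissue, and 22.1 ± 14.1 CPM in control tumors and 5.05 ± 3.33 CPM in control adjacent tissue (SD, n = 5 each). Vim rose in both genotypes (edgeR adjusted p = 0.000375 and 0.00491). Summed over the list, fibroblast rows held 14.4 to 53.1 CPM in Erbb2-deficient tumors and 11.2 to 23.0 CPM in Erbb2-deficient adjacent tissue, and 14.4 to 59.0 CPM in control tumors and 6.27 to 25.7 CPM in control adjacent tissue. In tumors most of that sum is Vim, with 203 counts in Erbb2-deficient and 130 in control tumors. In adjacent tissue Vim had 28 counts in each genotype and was the smaller part of the sum. The other 10 markers held 4.32 to 14.7 CPM in Erbb2-deficient tumors and 6.81 to 17.5 CPM in Erbb2-deficient adjacent tissue, and 3.39 to 13.6 CPM in control tumors and 3.58 to 14.8 CPM in control adjacent tissue, so the groups overlapped without Vim. Their summed counts were 62 in Erbb2-deficient tumors and 85 in the adjacent libraries, and 57 in control tumors and 50 in the adjacent libraries. Dpt, a matrix protein gene of fibroblasts, had 8 counts over all Erbb2-deficient tumors and 36 over the adjacent libraries, and 6 over all control tumors and 13 over the adjacent libraries. Pdgfra, a defining fibroblast receptor, had 13 counts over all Erbb2-deficient tumors and 20 over the adjacent libraries, and 8 over all control tumors and 18 over the adjacent libraries. Pdgfrb went the other way, with 12 counts in Erbb2-deficient tumors against 6 in adjacent libraries, and 17 against 2 in control mice. So did Thy1, with 14 against 9 and 9 against 4. Twist1 had 12 against 4 in Erbb2-deficient mice and 7 against 11 in control mice. S100a4 and Prrx1 were at 0 in both adjacent groups, Fap in both tumor groups and in control adjacent tissue. The part of fibroblast number in the rise of the 7 genes was not tested.

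Smooth muscle rows were far lower in tumors. All 12 listed markers were tested, and 11 fell in tumors of both genotypes and 0 rose (edgeR). Of all tested rows, 14.5% fell and 13.0% rose in Erbb2-deficient tumors, and 10.9% fell and 10.7% rose in control tumors. The sum of the 12 markers was 205 to 277 CPM in Erbb2-deficient tumors and 1186 to 1491 CPM in Erbb2-deficient adjacent tissue. It was 166 to 539.9 CPM in control tumors and 1207 to 2697 CPM in control adjacent tissue. Myh11, smooth muscle myosin, averaged 3.41 CPM in Erbb2-deficient tumors and 112 CPM in Erbb2-deficient adjacent tissue. Libraries labelled as adjacent epithelium thus also carry counts on rows of muscle genes. The part of muscle in the values of the 7 genes was not tested.

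Epithelial markers were present in both tissues. Of 12 listed 10 were tested, and 0 rose and 2 fell in tumors of each genotype, Slc26a3 and Cdx1 (edgeR), near the 14.5% and 10.9% of all tested rows that fell in Erbb2-deficient and control tumors. Their sum was 327 to 717 CPM in Erbb2-deficient tumors and 549.7 to 1039.6 CPM in Erbb2-deficient adjacent tissue, and 15.4 to 1004 CPM in control tumors and 374 to 995 CPM in control adjacent tissue. Of 12 endothelial and pericyte markers 2 were tested and 1 rose in both genotypes, Prox1, a gene of lymphatic endothelium that is also expressed in intestinal tumor epithelium. Its row averaged 30.4 CPM in Erbb2-deficient tumors and was at 0 in all Erbb2-deficient adjacent libraries, and it lies opposite Prox1os, while the lymphatic marker Lyve1 held 2 counts over all of those tumors. The Prox1 row passed the count filter through tumors only. Of 12 macrophage markers 3 were tested and C1qc rose in control tumors, by 2.02 ± 0.66 (edgeR adjusted p = 0.0323). In Erbb2-deficient tumors C1qc had 1.26 ± 0.62 (edgeR adjusted p = 0.137). The median log2 fold change of the 3 was -0.20 in Erbb2-deficient and 0.34 in control tumors. Other macrophage markers were mixed in control mice. Lyz2 and C1qa had 43 and 24 counts over tumors against 4 and 5 over adjacent libraries. Cd68 and Cd163 had 34 and 26 against 44 and 43. Of 10 lymphocyte markers 1 was tested, Ms4a1, which fell in Erbb2-deficient tumors by 1.39 ± 0.50 (edgeR adjusted p = 0.0432). In control tumors Ms4a1 had -0.84 ± 0.53 (edgeR adjusted p = 0.268). Lymphocyte sums ran from 9.52 to 172 CPM in control tumors, the highest in control tumor 2. Of 11 adipose, mesothelial and glial markers 1 was tested and did not pass, and of 10 housekeeping genes 4 were tested and none passed. Beside these counts, 13.0% of all tested rows rose and 14.5% fell in Erbb2-deficient tumors, and 10.7% rose and 10.9% fell in control tumors.

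**Figure D5:**
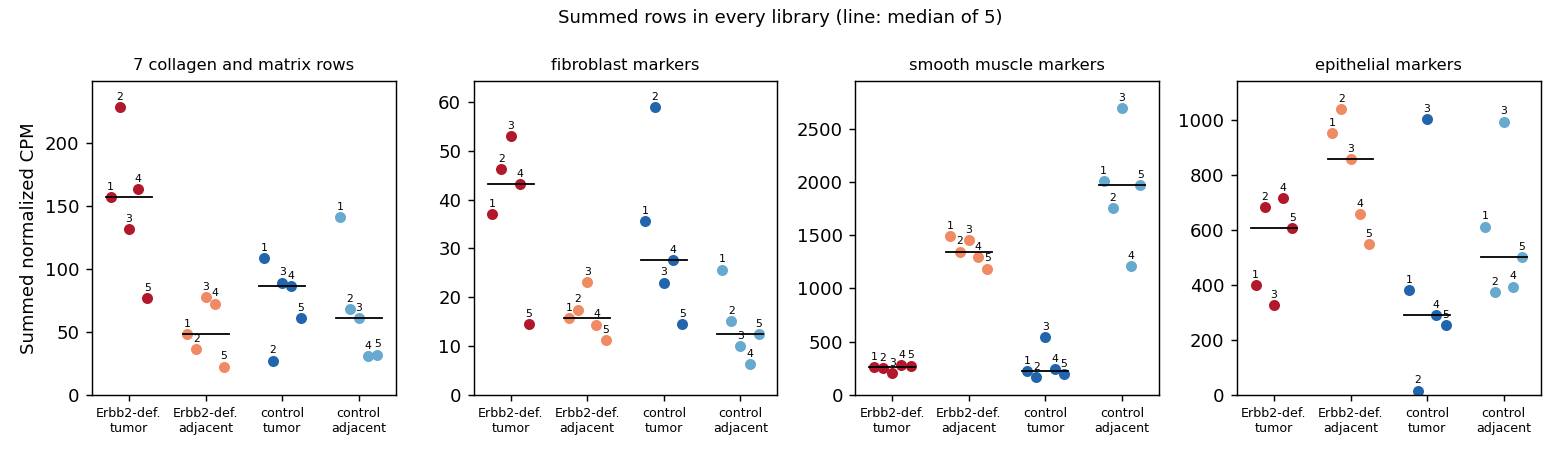
Summed normalized CPM per library for the 7 rows and for fibroblast, smooth muscle and epithelial marker rows, by group, with points numbered by replicate and a line at the median of 5. The 7 rows sum to 77.1 to 229 CPM in Erbb2-deficient tumors and to 22.5 to 77.8 CPM in Erbb2-deficient adjacent tissue, while smooth muscle rows are lower in tumors of both genotypes.

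Summed over the 7 rows, Erbb2-deficient tumors held 77.1 to 229 CPM with a median of 157 CPM, against 22.5 to 77.8 CPM with a median of 48.3 CPM in Erbb2-deficient adjacent tissue. Control tumors held 27.2 to 109 CPM with a median of 86.6 CPM, against 30.5 to 141 CPM with a median of 61.2 CPM in control adjacent tissue. The lowest control tumor was replicate 2 and the highest control adjacent library replicate 1.

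The 7 rows varied together from library to library to different degrees. Over 20 libraries, deviations of log2 CPM from the group means had positive Pearson r in all 21 pairs of genes, from 0.06 to 0.89 with a median of 0.50, and from 0.09 to 0.86 with a median of 0.57 without control tumor 2. The closest pairs were the fibrillar chains, with r of 0.89 for Col1a1 and Col3a1, 0.84 for Col3a1 and Col5a1 and 0.83 for Col1a1 and Col5a1. Sparc lay nearest to Col1a1, at 0.70, and Col6a1 was least like Mgp and Fn1, at 0.06 and 0.07. Library depth, tissue makeup and scaling are shared by all rows of a library, and these correlations are descriptive.

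Among 7112 other tested rows, the 8 whose deviations were most like the mean of the 7 genes over 20 libraries were led by Col1a2, with r of 0.92, or 0.90 without control tumor 2. Mid1ip1, Map7d1, Gm24576, Tjp1, Glul and Nt5c3b followed with r of 0.88, 0.85, 0.84, 0.83, 0.82 and 0.81, and Col4a2 came last of the 8 with 0.80. Nt5c3b lies opposite Fkbp10, a collagen chaperone gene. Without control tumor 2 the r of these 7 rows lay between 0.76 and 0.84, and 5 of the 8 rows, Gm24576, Tjp1, Glul, Nt5c3b and Col4a2, ranked from 9 to 21 and so left the first 8.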

How the data were processed

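RNA was extracted with a Maxwell kit and libraries were made with a TruSeq Stranded mRNA kit, per the labels' protocols. The deposited files hold read counts per gene symbol, made by the authors. The submitters' processing notes name genome build mm39 and the tools HTSeq (version 2.0.2), HISAT2 (version 2.2.1), Trimmomatic and DESeq2. Their roles and the strand setting of the counting are not given in the sources. The 5 summary rows that name no gene entered neither library sizes nor tests, and 18657 gene rows are at 0 in every library. Differences were tested with edgeR version 4.0.16 (R version 4.3.3): filterByExpr at a minimum count of 10, TMM scaling, a means model of the 4 groups over all 20 libraries, robust quasi-likelihood F tests, and Benjamini-Hochberg adjustment over 7119 rows at 0.05. Some rows passed the filter only through the tissue where they were high. Col12a1, Pmepa1, Bmp7 and Prox1 did so through tumors, and Plod1, Timp4, Myh11 and Slc26a3 through adjacent tissue. Calls of such rows are not independent of the filter. The standard error is the log2 fold change divided by the square root of F. Correlations used log2 CPM with a prior count of 2. DESeq2 version 1.42.0 and other scalings, filters, blocks and left-out libraries were alternatives. The fit was also run on simulated counts with known changes. Rows were drawn independently there and no library was made to stand apart, so that run does not check the fit under those features of these data. The 7 genes, the lists and the alternatives were chosen with earlier results of these data known. From each list at most 4 called members of smallest p were named, at most 6 rows opposite matrix genes, and the 8 rows most like the 7 genes. Creb3l1, Col1a2 and Col6a2 were named after their values were seen. Overlaps of genes came from GENCODE M21 (GRCm38), in which 34639 symbols matched, and no coordinates were converted.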

Additional observations from a re-analysis of the deposited data

Results flagged for a closer look

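Col1a1 in control adjacent replicate 1 had 35.5 CPM, the highest of its group, and the gap to the next library took up 0.735 of the group's range. Sparc in the same library had 17.8 CPM and a gap of 0.736 of the range. In both cases the share is above the critical value of 0.71 for 5 samples. These were 2 of 32 groups checked, and chance alone marks about 1 group in 20. All 7 rows were highest of their group in that library, with 33.6 CPM for Col3a1, 21.7 CPM for Fn1, 14.8 CPM for Col5a1, 13.8 CPM for Col6a1 and 3.95 CPM for Mgp, and the Gm13372 row was too, at 228 CPM. The share of all tested rows highest there was not computed, so this is not shown to be particular to the 7 genes. Sums of other matrix proteins (365 CPM) and of housekeeping genes (358 CPM) were also highest of the group there. Smooth muscle and epithelial sums were highest in control adjacent replicate 3 instead. The group means without that library were 4.91 CPM for Col1a1 and 2.64 CPM for Sparc. The cause was not tested.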

How the results depend on the processing

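Without control tumors 2 and 3, the rows called over the table numbered 2939 in Erbb2-deficient mice and 2544 in control mice, against 1959 and 1540 in the reported fit, and a fit to the compared groups alone gave 593 in control mice. Of the 7 genes, 2 rose in Erbb2-deficient tumors at a minimum count of 20, where 3 were tested, beside 798 of 4921 rows. In control tumors 1 rose and 1 fell without control tumors 2 and 3, beside 1168 and 1376 of 7946 rows. Leaving out 1 library in turn gave 4 to 6 higher genes in Erbb2-deficient tumors and 0 to 2 higher and 0 to 1 lower in control tumors. The rows called over the table moved as well. Without control tumor 2, where 6 genes rose, 1267 of 7516 rows rose in Erbb2-deficient tumors, against 929 of 7119 in the reported fit. Without control adjacent replicate 1, where 2 genes rose in control tumors, 659 of 7534 rows rose there. Between genotypes DESeq2 called 31 rows in tumors and 1 in adjacent tissue, where edgeR called 0, and edgeR gave 1 adjacent row with no filter, without control adjacent replicate 5 or without control tumors 2 and 3, and 2 without control tumor 2.

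Signs changed for small values. Leaving out 1 library gave log2 fold changes in control tumors of -0.36 to 0.24 for Col3a1, -0.59 to 0.0071 for Col5a1 and -0.046 to 0.71 for Mgp. Between genotypes in adjacent tissue it gave -0.79 to 0.0012 for Col3a1, -0.26 to 0.25 for Col6a1, -0.79 to 0.50 for Sparc, -0.025 to 0.63 for Fn1 and -0.087 to 0.24 for Mgp, and Col6a1 had 0.016 in the fit to the compared groups and 0.043 with the replicate block across the groups. The cause was not tested.

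The check used did not settle whether equal replicate numbers mark paired libraries. Deviations of same-numbered tumor and adjacent libraries had r of -0.02 to 0.23 in Erbb2-deficient and -0.12 to 0.37 in control mice. In Erbb2-deficient mice 1 of 5 tumors was most like the adjacent library of its own number, and in control mice 3 of 5. Tumor and adjacent tissue of 1 mouse need not deviate alike, so the check cannot exclude pairing. With the block, 5 of the 7 genes rose in Erbb2-deficient tumors. The rows called there numbered 2034 of 7119, or 1989 with blocks within genotype, and 1006 or 956 of them rose. In control mice the rows called numbered 1520 or 1428, and none of the 7 passed. Adjusted p over the alternatives of the Erbb2-deficient tumor comparison ran from 0.00123 to 0.0443 for Col1a1, 0.00200 to 0.0347 for Sparc, 0.00257 to 0.0362 for Fn1 and 0.000194 to 0.00620 for Mgp. Counts of 7.40 to 25.55 per library limit the precision of all 7 genes.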

Other observations

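Of 23 genes of the TGF-beta pathway, which drives matrix production in fibroblasts, 10 were tested. In Erbb2-deficient tumors 3 rose and 1 fell, beside 13.0% and 14.5% of all tested rows, and in control tumors 2 rose and 0 fell, beside 10.7% and 10.9%. The median log2 fold changes were -0.12 and 0.02, against -0.06 and 0.07 over all tested rows. Tgif1, a repressor in the pathway, averaged 98.5 ± 15.8 CPM in Erbb2-deficient tumors and 24.7 ± 15.7 CPM in Erbb2-deficient adjacent tissue, and 83.1 ± 33.2 CPM in control tumors and 36.1 ± 12.9 CPM in control adjacent tissue (SD, n = 5 each; edgeR adjusted p = 0.000931 and 0.0292). Pmepa1, an inhibitor of the pathway, rose by 2.85 ± 0.62 and 2.35 ± 0.64 on the log2 scale in Erbb2-deficient and control tumors (edgeR adjusted p = 0.00193 and 0.0124). Ltbp4, a matrix protein that binds latent TGF-beta, rose in Erbb2-deficient tumors by 2.09 ± 0.59 (edgeR adjusted p = 0.0123), and in control tumors it had 1.38 ± 0.58 (adjusted p = 0.0988). The inhibitory Smad7 fell in Erbb2-deficient tumors by 0.97 ± 0.33 (edgeR adjusted p = 0.0341), and in control tumors it had -0.94 ± 0.34 (adjusted p = 0.0517).

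Of 13 genes of the vitamin K-dependent carboxylation that Mgp needs and of bone morphogenetic proteins, 5 were tested and 1 rose in tumors of both genotypes, beside the same shares of all rows. It was Bmp7, a secreted signal of the family that Mgp binds, with 10.2 ± 4.76 CPM in Erbb2-deficient tumors and 1.45 ± 0.83 CPM in Erbb2-deficient adjacent tissue, and 6.56 ± 5.33 CPM in control tumors and 0.47 ± 0.69 CPM in control adjacent tissue (SD, n = 5 each; edgeR adjusted p = 0.00360 and 0.00489). In both comparisons between genotypes 0 rows of either list passed by edgeR.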
